A study of Oryza sativa with 24 samples.

Results

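Alpha-amylases are the enzymes that cut starch into soluble sugars, and the genes described here are the rice alpha-amylase genes, chosen by name: a gene symbol or synonym of the form AMY followed by a number, a dot and a number, or an RAmy name. The gene table held 6 such genes. The array carried probe sets for 5 of them, 6 probe sets in all among 57194 analysed, or 5 of 17905 genes with a probe set of their own. AMY1.1 (also AMY1A, LOC4330832) lies on chromosome 2, AMY1.5 (also amy2A, LOC4342055) on chromosome 6 and AMY1.2 (also RAmy3A, LOC4347262) on chromosome 9. AMY1.3 (also RAmy3D, LOC4345814), with 2 probe sets, and AMY1.4 (also RAmy3E, LOC4345812) are neighbours on chromosome 8. No probe set was paired with AMY1.6 (also RAmy3B, LOC9271949), the neighbour of AMY1.2, so its transcript was not analysed here.

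The samples were excised organs of rice (Oryza sativa, cultivar Nipponbare), taken from 2-week-old seedlings grown in hydroponic culture. The whole roots or the third leaves stood in water at 30 °C, and the bath lasted either 30 or 120 min. The tZ groups received 5 µM trans-zeatin, an active cytokinin, and the DMSO groups only the solvent, 0.1% dimethylsulfoxide, which the tZ groups carried too. This gave 8 groups of 3 arrays, 24 in all, and the study asked which genes respond to cytokinin in each organ. Every group therefore shared the excision and the bath, and no uncut seedling was among the samples.

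Grains, starving cells and submerged tissues all use alpha-amylases, but not the same genes. In germinating grain gibberellin switches on AMY1.1 in the aleurone, the layer that releases enzymes into the starchy endosperm. AMY1.3 is the family member best known for being repressed by sugar: in rice cells without sugar the kinase SnRK1A and the transcription factor MYBS1 switch it on, and under low oxygen the kinase CIPK15 is known to act through the same route. For that reason its transcript is used as a readout of sugar starvation and of low oxygen.

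Facts about the labels came before the results. The tissue field named root for all 24 samples, but OsCASP1, a gene of the root endodermis, read 2019 to 2666 in the arrays titled root and at most 27.1 in those titled leaf, so the titles were followed. All 5 type-A response regulators examined (OsRR1, OsRR2, OsRR4, OsRR6 and OsRR9), genes that cytokinin is known to induce, went against those labels: in both organs each array labelled DMSO 120 min read higher than all arrays labelled tZ 30 min. OsRR6, for example, averaged 2454 ± 167 in root DMSO 30 min, 5087 ± 219 in tZ 30 min, 17438 ± 317 in DMSO 120 min and 15078 ± 2364 in tZ 120 min (SD, n = 3). The groups keep the names on their labels here. If the labels DMSO 120 min and tZ 30 min were exchanged, what is called tZ against DMSO below would be a comparison of times, and what is called 120 against 30 min would be a comparison of tZ with DMSO. Whether they were exchanged was not tested. The alpha-amylases that passed the filter, and most genes and lists set beside them, are therefore also given as tZ 120 min against DMSO 30 min, which leaves out the 6 arrays per organ carrying the other labels. One array, replicate 2 of root tZ 120 min, stood apart from its group: CAB2R, a chlorophyll-binding protein gene, read 4746 there against 1436 and 1383 in the other arrays of that group, and 5417 to 5516 in root DMSO 120 min. Most root changes that use the array are followed by their value without it.

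AMY1.3 was the alpha-amylase with a clear response, and its brighter probe set lay above the array's median signal in 24 of 24 arrays. Its signal was 3.35 times as high in root tZ as in root DMSO at 30 min and 5.31 times at 120 min, and in leaf 4.45 and 5.76 times. Levels are deposited linear signals, and log2 changes are differences of log2(signal + 20), a scale that shrinks the changes of dim genes. Tests are limma fits with Benjamini-Hochberg adjustment over all probe sets tested and a threshold of 0.05.

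In roots labelled DMSO 30 min the AMY1.3 signal read 498, 544 and 557 (mean 533 ± 30.9, SD, n = 3). In roots labelled tZ 30 min it read 1641, 1837 and 1876 (1785 ± 126). The tZ arrays lay far above the DMSO arrays with no overlap, a log2 rise of 1.71 (SE 0.13, limma adjusted p = 4.57e-08). It was 1 of 2 alpha-amylase genes tested there that rose and the other did not pass; of all 34316 probe sets tested in that comparison 33.7% were called, and 13.9% called higher. In bulk tissue, more cells with the transcript and more transcript per cell cannot be told apart.

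At 120 min the root DMSO arrays read 268, 394 and 303 (321 ± 65.1) and the root tZ arrays 1876, 1464 and 1773 (1704 ± 215). The groups again did not overlap, and the lowest tZ array was replicate 2, the array that stood apart. The rise was 2.35 on the log2 scale (SE 0.13, adjusted p = 1.18e-09), and 2.45 without that array (adjusted p = 2.79e-10). Here 30.3% of all probe sets tested were called, and 11.4% as higher.

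Leaf AMY1.3 started from a lower signal. The arrays labelled DMSO 30 min read 65.4, 91.2 and 82.4 (79.7 ± 13.1), and those labelled tZ 30 min 382, 336 and 346 (355 ± 24.3). Every tZ array lay far above every DMSO array. The change was 1.92 (SE 0.153, adjusted p = 2.05e-08), in a comparison that called 45.6% of probe sets and 23.7% as higher.

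The leaf arrays at 120 min read 85.8, 79.4 and 100.4 in DMSO (88.5 ± 10.8) and 497, 437 and 595 in tZ (510 ± 79.8). Again no DMSO array reached the range of the tZ arrays, and the change was 2.28 (SE 0.153, adjusted p = 2.77e-09), with 43.4% of all probe sets called and 22% called higher.

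**Figure D1:**
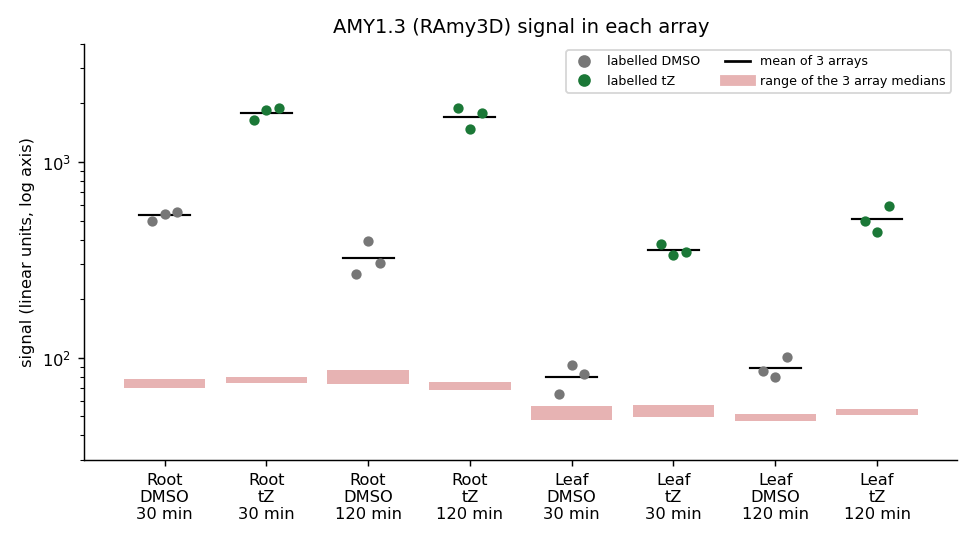
Deposited signal of the brighter AMY1.3 probe set (linear units on a log axis) in each of the 24 arrays, by organ, label and time; points are arrays, black lines group means of 3 arrays, and pink bands the range of the 3 arrays' median signals. In each organ the tZ arrays (1464 to 1876 in root, 336 to 595 in leaf) lie above every DMSO array (268 to 557 in root, 65.4 to 100.4 in leaf).

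The comparison that does not depend on the arrays with the contrary response regulators gave changes of the same direction. AMY1.3 was 3.2 times as high in root tZ 120 min as in root DMSO 30 min, a log2 rise of 1.63 (SE 0.13, adjusted p = 1.13e-07) where 29.4% of probe sets were called and 11.7% called higher, and of 1.74 (adjusted p = 2.03e-08) without the array that stood apart. In leaf the same comparison gave 6.4 times, a log2 rise of 2.41 (SE 0.153, adjusted p = 1.17e-09), where 45.6% were called and 23.4% called higher. Those pairs of groups differ in both treatment and time, which cannot be told apart within them.

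Between arrays of 1 treatment label, AMY1.3 changed in 1 of 4 comparisons of those labelled 120 min with those labelled 30 min. An exchange of labels would make these comparisons of tZ with DMSO. It fell by 0.71 in root DMSO (SE 0.13, adjusted p = 0.00366), from arrays between 498 and 557 to arrays between 268 and 394, and 6.23% of all probe sets were called in that comparison, 2.98% as lower. In root tZ it changed by -0.07 (SE 0.13, adjusted p = 0.825; 0.03 without the array that stood apart), with overlapping arrays and 6.74% of probe sets called. In leaf DMSO the change was 0.13 (SE 0.153, adjusted p = 0.814, 1.4% called), again with overlap. The leaf tZ arrays of 120 min, at 437 to 595, lay above those of 30 min, at 336 to 382, but the change of 0.49 (SE 0.153, adjusted p = 0.0644, 8.01% called) missed the threshold. It passed in the fit of all 24 arrays (adjusted p = 0.0454) and with a pseudocount of 80 in place of 20 (0.43, adjusted p = 0.0289).

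The difference of differences was tested too, and it is the same quantity under an exchange of labels. In root the tZ effect at 120 min minus that at 30 min was 0.64 (SE 0.183, adjusted p = 0.0599), with 4.6% of probe sets called. That value was past the threshold without the array that stood apart (0.75, adjusted p = 0.0214), without replicate 2 of root DMSO 120 min (0.79, adjusted p = 0.0182), and with arrays brought to the same median (0.78, adjusted p = 0.0144) or quantile-normalised (0.72, adjusted p = 0.049). In leaf the same difference was 0.36 (SE 0.217, adjusted p = 0.513, 3.83% called).

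AMY1.3 was lower in leaf than in root in all 4 label and time combinations. Its root signal was 6.69 times the leaf signal in DMSO 30 min, 3.63 times in DMSO 120 min, 5.03 times in tZ 30 min and 3.34 times in tZ 120 min. The log2 differences, leaf minus root, were -2.48, -1.64, -2.27 and -1.71 (each SE 0.143, adjusted p from 8.31e-14 to 2.44e-10), where 60.1%, 61.5%, 62.6% and 61% of 38131 probe sets were called, and 34%, 35%, 32.5% and 31.4% as lower. Without the array that stood apart the last was -1.81. Between organs the common trimmed mean leaves the medians of the arrays apart, at 47.6 to 57.0 in leaf and 68.2 to 86.7 in root. With arrays brought to the same median, which moved the median of all probe sets by 0.34 to 0.51, the 4 differences were -2.08, -1.13, -1.88 and -1.37, all called.

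The rise with tZ was not shown to differ between the organs. Leaf minus root, the effect differed by 0.21 at 30 min (SE 0.202, adjusted p = 0.489, 31.3% of probe sets called) and by -0.06 at 120 min (SE 0.202, adjusted p = 0.855, 30.7% called). The sign of both values depends on the scaling: at 30 min it was -0.16 with a pseudocount of 80 and -0.06 after quantile normalisation, and at 120 min 0.06 with a pseudocount of 5.

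In order of mean signal AMY1.3 ran from root tZ 30 min (1785) and root tZ 120 min (1704), whose arrays overlapped, down to root DMSO 30 min (533) and leaf tZ 120 min (510), which overlapped each other. A gap of 3.2 times separated these pairs. No array of leaf tZ 120 min reached down to those of leaf tZ 30 min. Leaf tZ 30 min (355) and root DMSO 120 min (321) overlapped, and leaf DMSO at 120 min (88.5) and 30 min (79.7) came last, overlapping and separated from the rest by a gap of 3.63 times.

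The other probe set of AMY1.3 was dim, above the array's median in 4 of 24 arrays, and passed the filter on low values in leaf only. In leaf DMSO 120 min it read 4.1, 7.5 and 18.2, and in leaf tZ 120 min 65.7, 75.5 and 41.3. These arrays did not overlap, and the rise of 1.44 (SE 0.385, adjusted p = 0.00585) had the direction of the brighter probe set. At 30 min it read 10.3, 55.6 and 13.7 in leaf DMSO and 46.8, 55.7 and 32.5 in leaf tZ, an overlap, with a change of 0.59 that did not pass (SE 0.385, adjusted p = 0.236). It passed without replicate 2 of leaf DMSO 30 min (1.01, adjusted p = 0.0444). So did the change from DMSO 30 min to tZ 120 min, which was 0.90 with all arrays (SE 0.385, adjusted p = 0.0696) and 1.31 without that one (adjusted p = 0.0105). In root its 12 arrays ran from 7.4 to 90.6 with overlap in every comparison of tZ with DMSO, so in root the probe sets disagree: only the brighter moved with the label.

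AMY1.5 was the other member bright enough to be tested in both organs, above the array's median in 22 of 24 arrays. Its changes were small and differed by organ. In root DMSO 30 min it read 90.3, 92.7 and 56.2 (79.7 ± 20.4), and in root tZ 30 min 110.2, 119 and 101 (110.1 ± 9.15). The arrays did not overlap, but the change of 0.40 (SE 0.261, adjusted p = 0.271) was not past the threshold.

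At 120 min root AMY1.5 read 102, 122 and 61.5 in DMSO (95.4 ± 31.0) and 189, 168 and 167 in tZ (174 ± 12.6), again without overlap. The rise of 0.79 passed (SE 0.261, adjusted p = 0.0312), which put both tested alpha-amylase genes among the 11.4% of probe sets called higher there. The call was lost without the array that stood apart (0.81, adjusted p = 0.0596), without either other root tZ 120 min array (0.74 and 0.82), without replicate 3 of root DMSO 120 min (0.56, adjusted p = 0.14) and with no filter on low values (0.79, adjusted p = 0.0811). Against root DMSO 30 min, root tZ 120 min was higher by 0.98 (SE 0.261, adjusted p = 0.00899), and by 1.01 without that array (adjusted p = 0.0207).

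In leaf AMY1.5 read between 104.8 and 161 in all 12 arrays. The group means were 149 ± 10.7 in DMSO 30 min, 144 ± 15.6 in tZ 30 min, 142 ± 16.2 in DMSO 120 min and 118 ± 19.7 in tZ 120 min, and each comparison of tZ with DMSO overlapped. The changes were -0.05 at 30 min (SE 0.165, adjusted p = 0.838) and -0.24 at 120 min (SE 0.165, adjusted p = 0.276), and -0.31 from DMSO 30 min to tZ 120 min (SE 0.165, adjusted p = 0.151).

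AMY1.5 was higher in leaf than in root in DMSO, by 0.78 at 30 min (SE 0.212, adjusted p = 0.00248) and 0.52 at 120 min (SE 0.212, adjusted p = 0.0361). In tZ the difference was 0.33 at 30 min (adjusted p = 0.184) and -0.51 at 120 min (adjusted p = 0.0423), the last with root above leaf. After quantile normalisation these tZ values were 0.66 (adjusted p = 0.00924) and -0.24 (adjusted p = 0.346), so which tZ difference is called depends on the scaling. The calls at 120 min each rest on single arrays: that in DMSO was lost without replicate 3 of root (0.29) or replicate 1 or 2 of leaf (0.46 and 0.50), and that in tZ without any root array or replicate 2 or 3 of leaf (-0.53 to -0.44). The tZ effect at 120 min differed between organs by -1.03, leaf minus root (SE 0.3, adjusted p = 0.00989), and by -1.05 without the array that stood apart (adjusted p = 0.0151). At 30 min that difference was -0.45 (SE 0.3, adjusted p = 0.286).

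In order, the highest AMY1.5 mean was root tZ 120 min at 174, whose arrays lay above those of every other group. Each of the 7 other groups, from leaf DMSO 30 min at 149 to root DMSO 30 min at 79.7, overlapped the next in order.

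**Figure D2:**
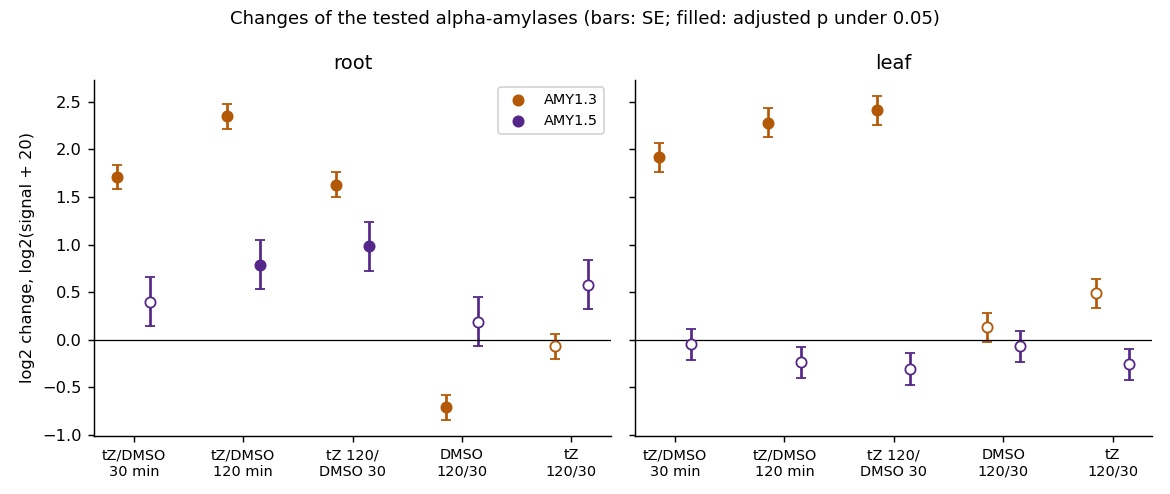
Change on the log2(signal + 20) scale of AMY1.3 (orange, brighter probe set) and AMY1.5 (purple) in 5 comparisons within root and 5 within leaf; bars are standard errors of the limma fit and filled points passed an adjusted p of 0.05. AMY1.3 lies between 1.63 and 2.41 in every comparison of a tZ with a DMSO group, while AMY1.5 passes in 2 root comparisons and in none in leaf.

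The remaining 3 genes were dim. AMY1.1, AMY1.2 and AMY1.4 lay below the array's median in 24 of 24 arrays and failed the filter in both organs. The array's median is a mark of brightness and not a limit of detection, since no detection calls were among the values used.

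AMY1.1, the gibberellin-regulated gene of the aleurone, ranged from 1.1 to 54.6 over the 12 root arrays and from 0.7 to 4.1 in leaf. The highest value came from 1 root DMSO 120 min array, whose group read 15.0, 5.1 and 54.6. Without the filter its change in root at 120 min was -0.79 (SE 0.333, adjusted p = 0.141), and -0.84 without the array that stood apart (adjusted p = 0.178).

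AMY1.4 (RAmy3E) read 4.0 to 43.3 in root and 1.5 to 17.6 in leaf, and its arrays overlapped in every comparison of tZ with DMSO. The suffix of its probe set marks, in the array maker's naming, probes that match transcripts of more than 1 gene, so its signal cannot be assigned to AMY1.4 alone.

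AMY1.2 (RAmy3A) read 2.1 to 51.1 in root and 2.1 to 41.8 in leaf. In root at 120 min it read 2.1, 5.9 and 2.2 in DMSO and 36.8, 35.0 and 51.1 in tZ, which did not overlap. Without the filter that change was 1.38 (SE 0.384, adjusted p = 0.0206), and 1.45 without the array that stood apart (adjusted p = 0.0314). Against root DMSO 30 min, which read 22.4, 38.3 and 3.1, it was 0.65 (SE 0.384, adjusted p = 0.343; 0.72 without that array), with overlap. In leaf at 30 min it read 41.8, 25.3 and 9.7 in DMSO and 3.8, 3.2 and 5.6 in tZ, lower without overlap, and the unfiltered change of -0.85 did not pass (SE 0.32, adjusted p = 0.0676).

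**Figure D3:**
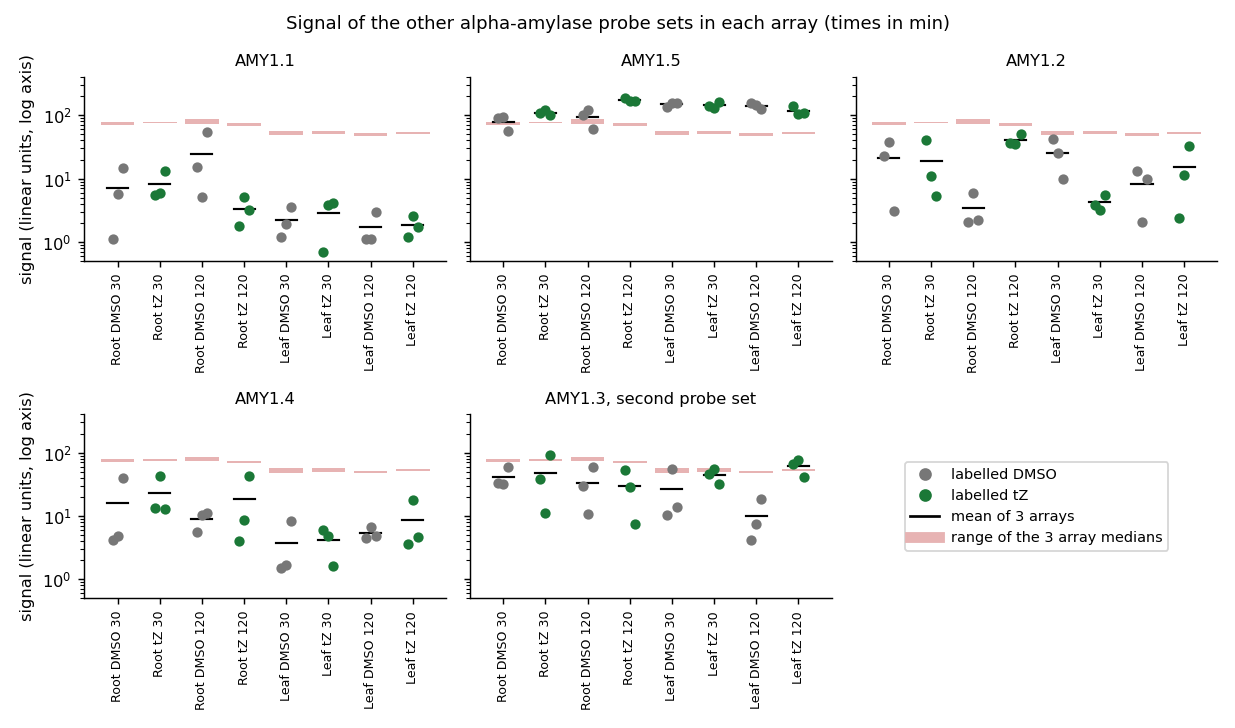
Deposited signal (linear units on a log axis) of the other 5 alpha-amylase probe sets in each array by organ, label and time; points are arrays, black lines group means of 3 arrays and pink bands the range of the arrays' median signals. AMY1.5 lies above the median of its own array in 22 of 24, and AMY1.1, AMY1.2 and AMY1.4 lie below it in all 24 arrays.

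Genes listed by name for sugar-starvation signalling were compared with AMY1.3 next. The list counts below stand against the shares of all probe sets called lower, which in root were 19.9% at 30 min, 18.9% at 120 min and 17.7% from DMSO 30 min to tZ 120 min, and in leaf 21.8%, 21.4% and 22.2%, and against the shares called higher given above. Of 8 genes on the sugar-starvation list 7 had a probe set and all 7 were tested, and CIPK15 was not analysed here. Among the 7, HAZ1 was matched by a synonym, and its part in sugar starvation was not examined. In root 4 rose and 0 fell at 30 min and 5 rose and 0 fell at 120 min, with a median change of 0.24 and 0.57 beside -0.04 and -0.10 over all probe sets tested. In leaf 4 rose and 2 fell at 30 min and 3 rose and 2 fell at 120 min, with medians of 0.19 and -0.06 beside 0.03 and 0.03. From DMSO 30 min to tZ 120 min 5 rose and 0 fell in root and 3 rose and 2 fell in leaf. Without the array that stood apart both root counts that use it were again 5 and 0. The 5 that rose in root at 120 min were MYBS1, MYBS2, MYBS3, OSK3 and SNRK1B. MYBS1 is an activator and MYBS2 and MYBS3 are repressors, so the counts give no direction for AMY1.3. OSK3 and SNRK1B were not read separately. From 30 to 120 min 1 rose and 0 fell in root DMSO, root tZ and leaf DMSO, and 2 rose and 1 fell in leaf tZ. In the same order 6.23%, 6.74%, 1.4% and 8.01% of all probe sets were called. These too would be comparisons of tZ with DMSO if the labels were exchanged.

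MYBS1, the activator that binds a sugar-response element in the promoter of AMY1.3, rose in each comparison of a tZ with a DMSO group. Root MYBS1 read 314, 219 and 184 in DMSO 30 min and 459, 653 and 660 in tZ 30 min, a rise of 1.25 (SE 0.187, adjusted p = 6.2e-05). At 120 min the root means were 204 ± 18.5 in DMSO and 534 ± 61.4 in tZ, a rise of 1.3 (SE 0.187, adjusted p = 6e-05), and 1.4 without the array that stood apart. Leaf MYBS1 averaged 306 ± 12.5 in DMSO 30 min and 1236 ± 164 in tZ 30 min, a rise of 1.94 (SE 0.0902, adjusted p = 2.4e-11). At 120 min it averaged 436 ± 8.25 and 2090 ± 114, a rise of 2.21 (SE 0.0902, adjusted p = 6.4e-12). The arrays did not overlap in any of the 4 comparisons. Between DMSO 30 min and tZ 120 min MYBS1 rose by 1.12 in root (SE 0.187, adjusted p = 0.00023; 1.22 without that array) and by 2.7 in leaf (SE 0.0902, adjusted p = 4.9e-13).

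In other respects MYBS1 differed from AMY1.3. It was higher in leaf than in root in all 4 label and time combinations, by 0.36 to 1.94, where AMY1.3 was lower. Its tZ effect differed between the organs, leaf minus root, by 0.69 at 30 min (SE 0.213, adjusted p = 0.015) and 0.91 at 120 min (SE 0.213, adjusted p = 0.0017). From 30 to 120 min MYBS1 rose by 0.49 in leaf DMSO (SE 0.0902, adjusted p = 0.014), and its change in root DMSO, -0.18, did not pass (SE 0.187, adjusted p = 0.69). In leaf tZ its direction over time was that of AMY1.3. There MYBS1 read 1365, 1291 and 1051 at 30 min and 2075, 1985 and 2211 at 120 min, without overlap.

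MYBS2 and MYBS3, known in rice as repressors of alpha-amylase promoters, responded differently in the organs: at 30 min the tZ effect, leaf minus root, differed by -1.59 for MYBS3 (SE 0.117, adjusted p = 9.6e-11) and by -1.08 for MYBS2 (SE 0.0802, adjusted p = 1.1e-10). MYBS3 rose in root at 30 min, its mean going from 3955 ± 349 to 6093 ± 749 (0.62, SE 0.0972, adjusted p = 0.0001) and by 0.63 at 120 min (SE 0.0972, adjusted p = 0.00013; 0.69 without the array that stood apart). In leaf MYBS3 fell, from 7052 ± 495 to 3573 ± 95.4 at 30 min (-0.97, SE 0.0568, adjusted p = 3.9e-10) and by 1.01 at 120 min (SE 0.0568, adjusted p = 3.1e-10). MYBS2 also fell in leaf, from 8556 ± 90.9 to 3924 ± 198 at 30 min (-1.12, SE 0.0484, adjusted p = 9.5e-12) and by 0.44 at 120 min (SE 0.0484, adjusted p = 1.2e-06). In root MYBS2 changed by -0.05 at 30 min (SE 0.0679, adjusted p = 0.67) and rose by 0.68 at 120 min (SE 0.0679, adjusted p = 1.5e-06; 0.76 without the array that stood apart). Against DMSO 30 min, tZ 120 min values of MYBS3 changed by 0.60 in root (0.66 without that array) and -1.17 in leaf, and MYBS2 by 0.99 in root (1.07 without it) and -0.45 in leaf, all called.

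The SnRK1 kinase genes changed less. SnRK1A, which encodes the starvation kinase itself, rose by 0.24 in root at 30 min (SE 0.0817, adjusted p = 0.034) and by 0.19 in leaf (SE 0.0733, adjusted p = 0.045). At 120 min it changed by -0.13 in root (adjusted p = 0.26; -0.09 without the array that stood apart) and -0.06 in leaf (adjusted p = 0.56). Its changes from DMSO 30 min to tZ 120 min, -0.04 in root (0.01 without that array) and 0.06 in leaf, did not pass. The probe set read for OSK3, another SnRK1-type kinase gene, rose in each of the 4 comparisons, by 0.21 to 0.75. That read for SNRK1B rose by 0.57 in root at 120 min and by 0.53 and 0.89 in leaf, and its change of 0.27 in root at 30 min did not pass (SE 0.164, adjusted p = 0.24). Without the array that stood apart the root changes at 120 min were 0.50 and 0.64. OSK3 rose from DMSO 30 min to tZ 120 min by 0.36 in root (0.38 without that array) and 0.68 in leaf, and SNRK1B by 0.53 (0.61 without it) and 0.71. Both probe sets belong to 1 group of similar sequences and carry suffixes for probes that can match more than 1 gene, so these rises cannot be assigned to OSK3 or SNRK1B separately.

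Low-oxygen genes rose in both organs in the comparisons labelled tZ against DMSO. Of 6 tested genes 5 rose and 0 fell in root at each time, and in leaf 5 rose at 30 min and 6 at 120 min, with 0 falling. Their median changes were 2.76 and 2.59 in root and 2.35 and 1.45 in leaf, beside medians over all probe sets between -0.10 and 0.03. From DMSO 30 min to tZ 120 min 5 rose and 0 fell in each organ, and without the array that stood apart the root counts were the same. Between arrays of 1 treatment label, 120 against 30 min, 0 of the 6 rose. In root DMSO 1 fell, in root tZ 1, in leaf DMSO 0 and in leaf tZ 2. Of all probe sets 6.23%, 6.74%, 1.4% and 8.01% were called there, in the same order. An exchange of labels would make these comparisons of tZ with DMSO.

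PDC1 and PDC2 encode pyruvate decarboxylases, which begin alcoholic fermentation. PDC1 in root read 177, 183 and 175 in DMSO 30 min and 22266, 23470 and 21699 in tZ 30 min, a rise of 6.82 (SE 0.118, adjusted p = 2.6e-15). At 120 min it averaged 95.4 ± 15.1 in DMSO and read 17988, 12794 and 17666 in tZ (7.12, SE 0.118, adjusted p = 1.7e-15; 7.28 without the array that stood apart). In leaf PDC1 stayed dim, at 22.8 ± 25.2 and 193 ± 67.5 at 30 min (2.41, SE 0.334, adjusted p = 1.3e-05). PDC2 rose by 2.30 and 2.08 in root (2.17 for the latter without that array) and by 2.30 and 2.23 in leaf, at 30 and 120 min. PDC1 rose from DMSO 30 min to tZ 120 min by 6.33 in root (6.49 without that array) and 2.19 in leaf, and PDC2 by 2.17 (2.27 without it) and 2.16.

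Adh2, an alcohol dehydrogenase gene of the same pathway, rose more in leaf. Its tZ effect at 30 min differed between organs by 6.26, leaf minus root (SE 0.142, adjusted p = 1.9e-19), where that of PDC1 differed by -4.41 (SE 0.363, adjusted p = 6.4e-10). Leaf Adh2 read 86.8, 93.8 and 73.9 in DMSO 30 min and 13260, 13089 and 13093 in tZ 30 min (6.98, SE 0.0765, adjusted p = 4.4e-18), while root Adh2 was already at 22403 ± 2566 in DMSO 30 min and rose by 0.72 (SE 0.113, adjusted p = 0.00011). NSHB1 and NSHB2, nonsymbiotic haemoglobin genes, rose by 3.10 to 3.87 in root and by 1.26 to 2.44 in leaf. Without the array that stood apart the root changes at 120 min were 0.60 for Adh2, 3.20 for NSHB1 and 3.59 for NSHB2. Adh2 rose from DMSO 30 min to tZ 120 min by 0.51 in root (0.59 without that array) and 6.65 in leaf, NSHB1 by 3.03 (3.13 without it) and 1.94, and NSHB2 by 3.59 (3.70 without it) and 1.23. The NSHB1 probe set has the suffix described for AMY1.4, so its signal cannot be assigned to NSHB1 alone. For AMY1.3 the tZ effect at 30 min differed between the organs by 0.21, leaf minus root. These comparisons share their arrays with those of AMY1.3.

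**Figure D4:**
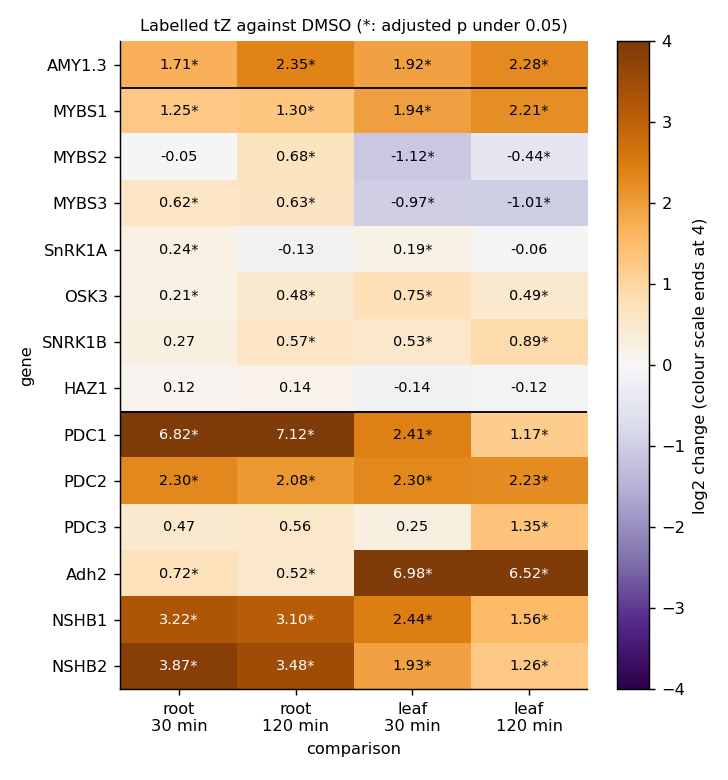
Log2 change of labelled tZ against DMSO at 30 and 120 min in root and leaf for AMY1.3 (top row), the 7 tested genes of the sugar-starvation list (middle) and the 6 tested low-oxygen genes (bottom), with the colour scale ending at 4; a star marks an adjusted p under 0.05. AMY1.3, MYBS1, OSK3, PDC1, PDC2, Adh2, NSHB1 and NSHB2 rose in all 4 comparisons, and MYBS2 and MYBS3 fell in leaf.

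Genes listed by name for starch synthesis mostly fell in leaf. Of 9 tested there 1 rose and 7 fell at each time, with median changes of -0.73 and -0.82 beside 0.03 and 0.03 over all probe sets, of which 21.8% and 21.4% were called lower. SS2, a starch synthase gene, fell from 1734 ± 69.9 to 752 ± 121 at 30 min (-1.20, SE 0.0961, adjusted p = 2.2e-08), and SSII-1, another, fell from 225 ± 21.7 to 71.0 ± 20.3 (-1.45, SE 0.267, adjusted p = 0.00025). In root 0 of 8 rose at either time, and 0 and 1 fell. From DMSO 30 min to tZ 120 min 1 rose and 7 of 9 fell in leaf, where SS2 changed by -1.04 and SSII-1 by -1.88, and 1 of 8 fell in root. The root counts were the same without the array that stood apart, and there the gene that fell was SSI2. It changed by -0.51 at 120 min and by -0.57 from DMSO 30 min to tZ 120 min. SSI2 was matched to the list by name and is also among the 9 tested in leaf. Its part in starch synthesis was not examined, so its fall is not read as a fall of starch synthesis in root.

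Of the other starch-degrading genes 3 were tested, and 0 were called in root in any of the 3 comparisons of a tZ with a DMSO group. In leaf 1 rose and 1 fell at 30 min, 1 rose and 2 fell at 120 min, and 1 rose and 2 fell from DMSO 30 min to tZ 120 min. DPE2, the cytosolic enzyme that processes maltose, rose by 0.30 at 30 min (SE 0.0713, adjusted p = 0.0023) and 0.42 at 120 min (SE 0.0713, adjusted p = 0.00014). DPE1, the plastid enzyme that recycles short glucans, fell by 0.52 in leaf at 120 min (SE 0.144, adjusted p = 0.0075). PWD, a kinase gene whose product phosphorylates starch ahead of its breakdown, fell by 0.28 (SE 0.063, adjusted p = 0.0015) and 0.29 (SE 0.063, adjusted p = 0.0011).

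Genes listed for sucrose cleavage and hexose phosphorylation were mixed. The list also held SPS and SPP genes, whose products make sucrose, so its counts cover both directions. In root 8 rose and 5 fell of 26 at 30 min, 7 rose and 5 fell at 120 min, and 7 rose and 5 fell from DMSO 30 min to tZ 120 min. Without the array that stood apart, SPS2 (LOC9267741, -0.80) and SPS3 (-0.43) were among the 5 that fell at 120 min. SPS1, SPS4, SPP1 and SPP2 were not called there. In leaf 4 rose and 10 fell of 27 at each time, and 5 rose and 9 fell from DMSO 30 min to tZ 120 min, where 45.6%, 43.4% and 45.6% of all probe sets were called. SUS1, a sucrose synthase gene, rose in root from 17499 ± 769 to 24528 ± 879 at 30 min (0.49, SE 0.0751, adjusted p = 8.6e-05), and was 0.36 higher in root tZ 120 min than in DMSO 30 min (0.43 without the array that stood apart). Among 12 sugar transporter genes 3 rose and 3 fell in root at 30 min and 2 rose and 4 fell at 120 min (3 without that array), and in leaf 2 rose and 6 fell, then 2 rose and 7 fell. From DMSO 30 min to tZ 120 min 5 rose and 3 fell in root and 3 rose and 6 fell in leaf. MST3, a monosaccharide transporter gene, rose in all 4 comparisons by 0.48 to 0.82, and SWEET14, a sucrose exporter gene, fell in all 4, with changes from -1.53 to -0.93. Without the array that stood apart the root changes at 120 min were 0.57 and -1.04. MST3 rose from DMSO 30 min to tZ 120 min by 0.65 in root (0.74 without that array) and 0.62 in leaf, and SWEET14 changed by -1.11 (-1.22 without it) and -1.29. The SWEET14 probe set has a suffix for probes that can match more than 1 gene, so its signal cannot be assigned to SWEET14 alone.

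TPP7 encodes a trehalose phosphate phosphatase known in rice for enhancing starch use during germination under water. Of 7 such phosphatase genes tested, 1 rose and 3 fell in root at 30 min and 1 rose and 2 fell at 120 min (3 without the array that stood apart). From DMSO 30 min to tZ 120 min 2 rose and 3 fell in root. In leaf 2 rose and 3 fell, 1 rose and 3 fell, and 1 rose and 3 fell in the same order. Root TPP7 fell at 30 min to 990.3 ± 70.9 against 12857 ± 124 in DMSO (-3.67, SE 0.419, adjusted p = 3.8e-06) and leaf TPP7 to 3374 ± 85.5 against arrays of 12071 to 12837 in DMSO (-1.87, SE 0.045, adjusted p = 1.1e-14). Root tZ 120 min read 1129, 6278 and 1186, the high value coming from the array that stood apart. The changes from DMSO 30 min to tZ 120 min were -2.64 in root (-3.45 without that array) and -2.49 in leaf, opposite in sign to those of AMY1.3. The TPP7 probe set also has the suffix described for AMY1.4, so its signal cannot be assigned to TPP7 alone. Its Pearson correlation with AMY1.3 over the 8 group means was -0.79.

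Genes known for gibberellin control of alpha-amylase in the aleurone had 1 rising and 3 falling of 6 tested in root at 30 min, 2 rising (1 without the array that stood apart) and 3 falling at 120 min, and 0 rising and 3 falling from DMSO 30 min to tZ 120 min. In leaf 0 rose and 2 fell, 1 rose and 2 fell, and 0 rose and 2 fell in the same order, at most 3 of 6 where 43.4% to 45.6% of all probe sets were called. WRKY71, a repressor of gibberellin-induced alpha-amylase, fell in root from 18282 ± 486 to 8317 ± 685 at 30 min (-1.14, SE 0.109, adjusted p = 6e-07). In leaf it fell from 19178 ± 1266 to 10606 ± 117 (-0.85, SE 0.0485, adjusted p = 3e-10). WRKY71 changed from DMSO 30 min to tZ 120 min by -0.85 in root (-1.01 without the array that stood apart) and -0.79 in leaf. AMY1.1, the gene that pathway is known for, stayed dim in the same arrays.

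Markers of other tissues were measured beside AMY1.3. For grain tissue, 10 storage protein genes had a probe set, and their summed signal lay between 2846 and 4386 in all 24 arrays: 4155 to 4386 in root DMSO 30 min and 3564 to 3897 in root tZ 30 min, 3717 to 4186 in leaf DMSO 30 min and 3046 to 3405 in leaf tZ 30 min. At 120 min it was 3645 to 3972 and 2871 to 3463 in root, and 3809 to 4002 and 2846 to 3142 in leaf, DMSO first. Within an organ and time the sum was lower in the tZ arrays. Most of it came from GLB and GLUA2, which were bright in both organs, at 2836 and 898 in leaf DMSO 30 min. In root at 30 min GLB averaged 2282 in DMSO and 2051 in tZ, and GLUA2 1245 and 1324, so members did not all follow the sum. In root, prolamin averaged 290.0 ± 17.1 in DMSO 30 min and 18.9 ± 21.1 in tZ 30 min. At 120 min it averaged 8.23 ± 2.63 in DMSO and 45.2 ± 64.0 in tZ. GluB5 and GLUA3 were also highest in root DMSO 30 min, at 109.2 against 23.3 to 47.1 and 61.4 against 21.5 to 27.9. Among root groups, RAG1, RAG2, GLUD1, GLB and GLUA2 were not highest there. The part of grain tissue in the AMY1.3 result was not tested. In the 4 comparisons of tZ with DMSO 0 of the 6 tested in root or the 5 in leaf rose, and between 4 and 7 of the 10 lay below the array's median in every array of a group.

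Leaf markers moved with the label in root. The summed signal of 6 leaf marker genes was 9893 to 11265 in root DMSO 30 min, 1494 to 1589 in tZ 30 min, 5928 to 5965 in DMSO 120 min and 1692 to 5150 in tZ 120 min, most of it from CAB2R. In leaf the sum was 89556 to 96546, 63750 to 66176, 83980 to 88801 and 68692 to 71600 in the same order. Of 5 tested in leaf 4 fell and 1 rose at each time. The gene that rose was GLK2, from 7155 in DMSO to 10956 in tZ at 30 min and from 7845 to 9778 at 120 min. RBCS1 was dim in leaf, with group means of 7.37 to 10.4. The part of these markers in the AMY1.3 result was not tested.

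Among 1651 named genes, those most like AMY1.3 over the 8 group means were osysl12 (Pearson r = 0.98), a yellow stripe-like transporter gene, CPA (r = 0.97), cap2 (r = 0.97), IAA18 (r = 0.97), an auxin-response repressor gene, and CKX11 (r = 0.97), a cytokinin dehydrogenase gene. CKX11 averaged 1416 ± 93.1, 6918 ± 174, 2267 ± 118 and 7575 ± 944 in root and 340 ± 42.8, 2018 ± 79.0, 358 ± 32.4 and 2301 ± 41.6 in leaf, in the order DMSO 30, tZ 30, DMSO 120 and tZ 120 min. NSHB2 ranked 35 (r = 0.91), PDC1 41 (r = 0.90) and Adh2 55 (r = 0.87). The 8 points share arrays, scaling and the organ and label differences, so r describes a shared pattern only.

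AMY1.5 had looser companions: CPS1 (r = 0.82), a diterpene cyclase gene of gibberellin synthesis, OsUGE-3 (r = 0.80), a UDP-glucose epimerase gene, ABA8OX1 (r = 0.80), an abscisic acid hydroxylase gene, cpdk (r = 0.79) and OsPRR95 (r = 0.78), a circadian clock gene. CPS1 averaged 54.8 ± 6.84 in root DMSO 30 min, 249 ± 73.7 in root tZ 120 min, 183 ± 13.9 in leaf DMSO 30 min and 167 ± 31.7 in leaf tZ 120 min. The r of AMY1.5 with PDC1 was 0.17 and with Adh2 -0.40.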

How the data were processed

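RNA from excised rice roots or leaves was hybridised to a 1-colour rice array, 24 arrays in 8 groups of 3. The deposited values are the authors' linear intensity, 1 signal per probe set and array; the summarising software is not given in the sources used here. After trimming 2% at each end the arrays' means were all 500.07 or 500.08, which shows a scaling of the deposited intensity to 1 trimmed mean.

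From 57381 probe sets 187 controls were left out. Signals became log2(signal + 20) with no further normalization. Within an organ the probe sets whose mean lay above the 40th percentile were tested (34316 in each, 38131 in at least 1 organ). Differences were tested two-sided with limma 3.58.1 in R 4.3.3 (lmFit, eBayes with trend) on the 12 arrays of an organ, or on all 24 between organs, with Benjamini-Hochberg adjustment over all probe sets tested. All adjusted p-values come from these fits, over 18 comparisons, 12 of them within an organ. The fits were tested on simulated data. The number of arrays, 3 per group, limits precision, and no label says that they came from separate cultures. The p-values therefore rest on the spread between arrays only, which may be technical.

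Names came from the array annotation and a RefSeq gene table used for names, chromosomes and neighbours. A listed gene was represented by its brightest probe set, and all alpha-amylase probe sets are given. Named genes were all members, the 5 genes most like AMY1.3 and AMY1.5 by Pearson correlation over group means (named genes spanning at least 1 log2 unit), and in each list the called genes with the largest changes (2, or up to 6 in the sugar and low-oxygen lists); MST3, SWEET14 and SUS1 were picked from these, and some genes the rule names are left undescribed. The members, lists and alternatives were chosen with earlier results of these data known, and list matches that were wrong by name were dropped after member values had been seen. Alternatives were the pseudocount, the filter, the normalization, the trend, a replicate block, all arrays in 1 fit and leaving out each array. The values of listed genes, list counts and unfiltered alpha-amylases without root tZ 120 min replicate 2 were added after seeing the data. Both times appear in the protocol of the root samples titled tZ 30 min, and the title was followed. Same-numbered arrays were not paired (correlations of deviations from -0.055 to 0.075 over 36 pairs, 0 above 0.1).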

Additional observations from a re-analysis of the deposited data

Results flagged for a closer look

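AMY1.5 differed between the organs in its tZ effect at 120 min: the effect was 0.79 in root and -0.24 in leaf, a difference of -1.03 (leaf minus root, SE 0.3, limma adjusted p = 0.00989). It was picked out because the test of the difference itself passed. The 3 root tZ arrays (167 to 189) lay above the 3 root DMSO arrays (61.5 to 122), and in leaf the arrays overlapped. Leaving out any 1 array gave -1.2 to -0.8.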

How the results depend on the processing

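Of the AMY1.3 tests under other settings (leaving out arrays aside) 131 kept direction and call, 4 became past the threshold and 3 reversed, all 3 in values that were not called. The leaf change from 30 to 120 min in tZ passed with a pseudocount of 80 (0.43) and with all 24 arrays in 1 fit (0.49). The root tZ effect at 120 minus 30 min passed after quantile normalisation (0.72) and with arrays brought to the same median (0.78). The leaf minus root tZ effect reversed at 30 min with a pseudocount of 80 (-0.16) and after quantile normalisation (-0.06), and at 120 min with a pseudocount of 5 (0.06). For AMY1.5, leaf against root in tZ 120 min missed the threshold with a pseudocount of 5 (-0.56), no filter (-0.51), quantile normalisation (-0.24) and equal medians (-0.17), and in tZ 30 min passed with the latter 2 (0.66 and 0.72). With no filter AMY1.5 missed it in root tZ against DMSO at 120 min (0.79) and in leaf against root, DMSO 120 min (0.52). The cause was not tested.

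Leaving out 1 array in turn gave, for AMY1.3, 0.53 to 0.79 in the root tZ effect at 120 minus 30 min, -0.14 to 0.03 in root tZ over time and -0.21 to 0.05 in the leaf minus root tZ effect at 120 min. For AMY1.5 it gave 0.56 to 0.96 in root tZ against DMSO at 120 min, 0.29 to 0.69 and -0.62 to -0.44 in leaf against root at DMSO and tZ 120 min, -0.13 to 0.01 in leaf tZ against DMSO at 30 min and -0.12 to 0.02 in leaf DMSO over time. For the dimmer AMY1.3 probe set, leaf against root in tZ 30 min ran from -0.33 to 0.58.

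Counts of all probe sets called moved by over 1.5 times in comparisons of times. Leaf DMSO 120 against 30 min went from 481 to 315 with no filter, 141 with equal medians, 61 without trend, 147 with all 24 arrays in 1 fit and 146 to 331 with 1 array left out. Without trend, root DMSO went from 2137 to 850, root tZ from 2312 to 1232, leaf tZ from 2749 to 1819, and the tZ effect at 120 minus 30 min from 1578 to 403 (root) and from 1316 to 678 (leaf). With all arrays in 1 fit leaf tZ gave 1705 and those differences 2389 and 723, and with equal medians the leaf difference gave 800. With 1 array left out root DMSO gave 1202 to 1704, root tZ 1397 to 2136 and the root difference 846 to 1819. The replicate block changed no call of an alpha-amylase; AMY1.3 in root tZ against DMSO at 120 min was 2.35 with it. It moved the leaf DMSO time count from 481 to 299. The samples share only a number, and 7 of 24 arrays correlated best with their own. Dim probe sets limit what can be said of AMY1.1, AMY1.2, AMY1.4 and the second AMY1.3 probe set. Cross-hybridisation among the similar alpha-amylase genes was not tested.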
